A study of Mus musculus with 4 samples.

Results

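The maternally methylated imprinted genes described here are Peg3, Mest, Snrpn, Plagl1, Kcnq1ot1, Peg10, Grb10, Nnat, Zrsr1 and Nap1l5. They are 10 of the 47038 autosomal genes of the RefSeq table, and they were taken by name as genes whose control region is methylated on the chromosome inherited from the mother. Each was measured over its mm10 span with 5000 bp added on either side. Methylation had been read by bisulfite sequencing of the whole genome in microglia of the hippocampus, which are the brain's own macrophages, of mice 3 weeks after birth. Fetal growth restriction, FGR in the labels, was represented by 2 libraries, and control mice gave another 2. The genotype of both groups was Tmem119-tdTomato+/-, in which a microglial gene carries a red fluorescent reporter. The labels do not say how growth was restricted, nor whether a library comes from 1 animal or from a pool. The tests therefore compare these libraries and cannot give the spread between animals.

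Imprinted genes are expressed from only 1 of the parental chromosomes. For the genes here the choice is set in the oocyte, where a CpG-rich control region gains methylation that the sperm copy lacks, and most body cells keep that difference for life. The zinc finger protein ZFP57 is known to bind a short methylated motif in such regions and to protect them when the rest of the embryonic genome loses methylation. A region with 1 methylated and 1 unmethylated copy reads as a level near 50% in a pool of cells, whereas most of the mammalian genome is close to fully methylated. Several of these genes act on fetal and placental growth, which is why they are of interest after growth restriction.

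The sequences of annotated promoters show what the libraries did and did not see there. They need not cover the control regions. RefSeq promoters of 300 bases were at hand for 9 of the 10 genes, with 15 promoters in all, and the RefSeq coordinates are those of GRCm38.p6, the assembly of mm10. In 5 of the leading stretches described below a RefSeq promoter overlapped the stretch, for Zrsr1 only at its edge, and these promoters are printed 5′ to 3′ on the strand of the gene, followed by that of Nap1l5, which behaved differently. Capitals mark the CpGs listed in at least 1 of the 4 libraries.
Peg3, chr7:6730370-6730669, minus strand: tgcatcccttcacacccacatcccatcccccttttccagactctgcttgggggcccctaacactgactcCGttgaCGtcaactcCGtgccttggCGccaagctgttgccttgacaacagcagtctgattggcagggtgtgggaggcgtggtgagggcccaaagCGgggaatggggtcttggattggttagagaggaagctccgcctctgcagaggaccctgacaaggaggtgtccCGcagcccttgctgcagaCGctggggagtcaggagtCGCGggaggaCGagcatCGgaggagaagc
Zrsr1, chr11:22971755-22972054, plus strand: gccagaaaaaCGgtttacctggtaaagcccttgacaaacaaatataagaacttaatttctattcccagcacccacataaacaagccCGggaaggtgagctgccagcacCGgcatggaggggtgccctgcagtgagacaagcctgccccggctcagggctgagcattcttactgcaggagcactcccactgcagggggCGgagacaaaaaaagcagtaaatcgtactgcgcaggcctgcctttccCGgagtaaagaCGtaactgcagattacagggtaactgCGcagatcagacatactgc
Kcnq1ot1, chr7:143296498-143296797, minus strand: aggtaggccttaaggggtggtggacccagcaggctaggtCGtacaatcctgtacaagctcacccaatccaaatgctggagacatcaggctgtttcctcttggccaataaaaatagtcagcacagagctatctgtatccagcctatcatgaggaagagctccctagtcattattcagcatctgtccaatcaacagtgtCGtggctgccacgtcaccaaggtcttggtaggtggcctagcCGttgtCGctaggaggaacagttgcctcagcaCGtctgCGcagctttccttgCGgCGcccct
Plagl1, chr10:13090582-13090881, plus strand: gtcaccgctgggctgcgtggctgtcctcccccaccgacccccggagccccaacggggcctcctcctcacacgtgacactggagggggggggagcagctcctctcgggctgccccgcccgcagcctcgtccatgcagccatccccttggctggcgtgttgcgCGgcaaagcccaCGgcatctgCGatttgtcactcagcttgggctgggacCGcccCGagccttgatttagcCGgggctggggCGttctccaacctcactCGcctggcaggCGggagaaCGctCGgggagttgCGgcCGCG
Snrpn, chr7:60005150-60005449, minus strand: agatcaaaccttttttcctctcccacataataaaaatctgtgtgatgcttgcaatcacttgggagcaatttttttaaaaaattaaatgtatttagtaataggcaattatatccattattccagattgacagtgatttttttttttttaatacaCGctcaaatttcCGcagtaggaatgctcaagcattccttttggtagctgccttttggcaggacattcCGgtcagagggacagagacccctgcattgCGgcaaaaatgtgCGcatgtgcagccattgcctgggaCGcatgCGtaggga
Nap1l5, chr6:58907077-58907376, minus strand: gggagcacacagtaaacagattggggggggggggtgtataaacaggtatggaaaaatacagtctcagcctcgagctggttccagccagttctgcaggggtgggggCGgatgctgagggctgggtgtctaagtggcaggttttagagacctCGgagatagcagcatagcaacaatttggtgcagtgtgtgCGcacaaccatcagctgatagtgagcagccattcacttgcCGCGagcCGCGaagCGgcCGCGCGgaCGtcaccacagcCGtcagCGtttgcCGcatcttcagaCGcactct
The Peg3 promoter held 13 CpGs, of which 11 were listed, and that of Plagl1 held 26, of which 14 were listed. The CpGs left in lower case were listed in no library, and no listed cytosine had a coverage under 5 reads. Listed CpGs in the promoters numbered 90, with the 2 overlapping Mest promoters counted once, and all of them fell on a CG of the sequence. The ZFP57 core motif TGCCGC, searched on both strands as its 6 letters, occurred in 7 of the 15 promoters (46.7%), or in 6 of 14 with the overlapping Mest promoters counted once, and in 11.6% of the 31363 autosomal RefSeq promoters of that length, overlapping ones included. The promoter of Nap1l5 and the inner promoter of Mest had 2 matches each. Those of Nnat, Plagl1, the Snrpn promoter printed above and 1 of Grb10 had 1 match each, and those of Peg3, Kcnq1ot1 and Zrsr1 had 0.

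The libraries listed 7615146 and 13578464 cytosines in FGR and 9335713 and 10023353 in control, with a mean coverage between 6.51 and 6.76 reads. Autosomal methylation was 74.6% and 75.6% in FGR, against 76.0% and 76.4% in control. Of the microglial marker genes, P2ry12, Cx3cr1, Tmem119 and Csf1r had median window levels of 69.0%, 7.51%, 45.3% and 42.1%. Of the 11 measured markers of neurons, astrocytes, oligodendrocytes and endothelium, 10 had a median of at least 60%. The lowest window was at 0% in P2ry12, Cx3cr1 and Csf1r and at 3.33% in Tmem119, but also at 0% in Mbp, an oligodendrocyte gene. Their part in the results below was not tested.

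Where the genes were rich in CpGs, their levels clustered around the middle of the scale. Levels were taken in 500-bp windows on a fixed grid, with strands summed per CpG, and a window counted as measured with at least 3 CpGs and 10 read counts in each group. Of 14 measured member windows with at least 20 listed CpGs, 10 lay between 35% and 65% (71.4%). Among all 9616 autosomal windows as rich in CpGs, 4.44% lay in that range and 55.1% were under 20%. The 4 member windows outside the range were 1 in Peg10 at 67.7%, 1 in Grb10 at 68.6%, 1 in the Peg3 body at 90.5% and 1 in Snrpn at 12.1%. With windows of any richness, 170 of 585 were intermediate (29.1%), against 16.1% of 1883704 autosomal windows. Snrpn alone, a locus with many windows, gave 97 of these 170, and without it the share was 73 of 365 (20%).

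The single window with the most listed CpGs gave each gene a value that no methylation threshold had chosen. This choice of window was added after the data had been seen. In Kcnq1ot1, which encodes a long non-coding RNA that silences its neighbours, the window held 28 CpGs and read 49.4% and 38.2% in FGR, against 73.6% and 49.0% in control. In Plagl1, a zinc finger transcription factor of growth control, it read 38.2% and 79.2% in FGR, against 81.0% and 20% in control, and the last of these rested on only 5 read counts. In Peg10, a gene derived from a retrotransposon and needed for the placenta, it read 33.3% and 62.8% in FGR, against 75.2% and 75.6% in control. The 33.3% rested on 12 read counts at 2 CpGs. Distinct reads there were at least 6 and 6 in FGR and at least 7 and 7 in control. Of the 4 genes in which all libraries were listed in this window the groups did not overlap in Peg10, lower in FGR, and in Snrpn, higher in FGR, and they did not overlap in 32.4% of all windows tested. The Snrpn window lay inside the transcript and was low throughout, at 19.5% and 16.3% in FGR, against 8.47% and 3.85% in control.

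Nnat and Nap1l5 had no stretch of intermediate windows, for different reasons. In Nnat, a membrane proteolipid of the developing brain, the richest window straddled the gene start and read 49.1% and 45.8% in control over 110 and 166 read counts. FGR replicate 1 listed none of its CpGs and FGR replicate 2 had 5 read counts, so the window could not be compared. Nap1l5, a retrogene inside Herc3, went against its label. Its richest window, over the promoter printed above, read 89.7% in FGR replicate 2 over 87 read counts, against 99.2% in control replicate 2 over 128. These counts came from at least 12 reads in each library. FGR replicate 1 had no listed CpG and control replicate 1 had 8 read counts, all methylated, so a level near 50% was not seen in this window. Of the 15 measured windows of the Nap1l5 span 1 was between 35% and 65%.

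**Figure D1:**
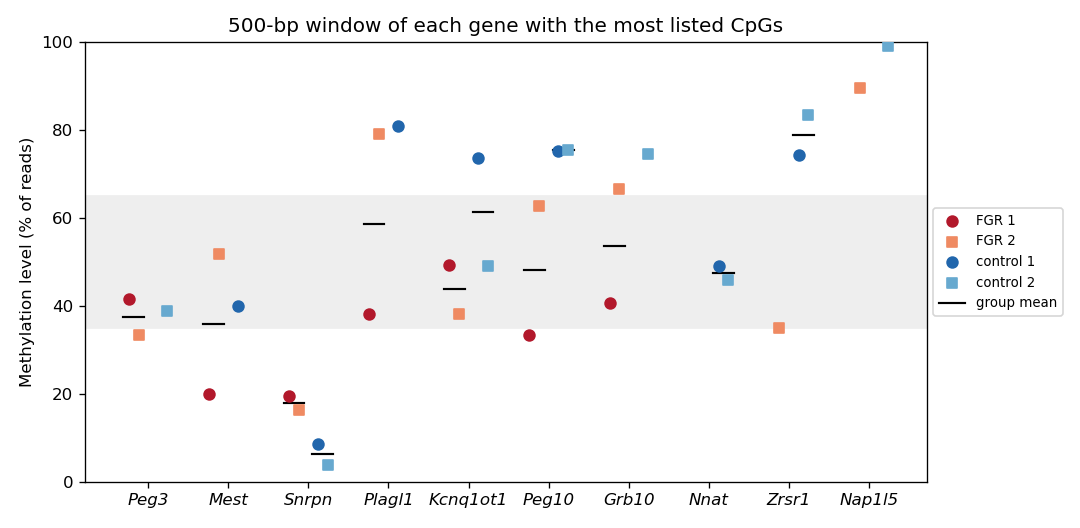
Methylation level (percent of reads, y axis) in the 500-bp window with the most listed CpGs of each gene (x axis), 1 point for each library, FGR left of control. Points with under 10 read counts are left out, black lines are means where both libraries of a group have a point, and the grey band is 35 to 65%. Snrpn lies at the bottom and Nap1l5 near the top, and most other points lie between 33.3% and 83.5%.

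Stretches of intermediate methylation were found in 8 of the 10 genes, at or near the annotated ends of most of them. A stretch was a run of at least 2 windows between 35% and 65%, and the leading stretch of a gene was the one with the most listed CpGs. The level range chose these stretches, so their being intermediate is a description. They ran over 1000 to 5000 bp, and 7 of the 8 held at least 30 CpGs. They had been picked for their number of CpGs, and of all 31 stretches in these genes 9 held as many. The table used here gives no exons, so positions are given against gene ends.

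The Peg3 stretch held the most listed CpGs of all 38039 on the autosomes. Peg3 encodes a zinc finger protein that in mice affects growth and maternal care. Its stretch, chr7:6727501-6732500, covered the gene's end at the promoter printed above, reached into Usp29 and held 111 of them. It read 44.0% and 45.3% in FGR, against 51.7% and 53.8% in control. Both FGR libraries lay below both controls, and the means were 44.7 ± 0.888% in FGR and 52.7 ± 1.46% in control (SD, n = 2 each), a difference of -8.07 points. At the 54 CpGs listed in both groups the pooled levels were 45.3% in FGR and 52.9% in control, with 26 CpGs higher and 25 lower in FGR. The adjusted p over all stretches was 0.897. The promoter itself read 64.0% and 60% in FGR, against 33.3% in control replicate 2, over 25, 25 and 30 read counts. Those counts came from at least 5 distinct reads in each of these libraries, and control replicate 1 had no listed CpG. So few reads cannot give the promoter a direction.

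Zrsr1 had the largest difference among the leading stretches. Zrsr1 encodes a splicing factor of the U2AF family and lies within Commd1. Its stretch, chr11:22972001-22974500, began at the promoter printed above and held 84 CpGs, of which 12 and 47 were listed in the FGR libraries and 51 and 43 in the controls. Taken as a whole it read 45.5% and 47.4% in FGR, against 66.9% and 65.8% in control, which set the groups apart by more than their spread. The Wilson 95% intervals were 34.0 to 57.4% and 42.1 to 52.7% in FGR, and 61.7 to 71.6% and 59.8 to 71.3% in control. The difference of group means was -19.9 points, with an unadjusted p of 0.00109 and an adjusted p of 0.317. The read counts repeat reads that cover several CpGs, and the distinct reads were at least 26 and 40 in FGR and at least 36 and 28 in control, so the intervals can be too narrow. At 37 CpGs listed in both groups the levels were 45.3% in FGR and 64.6% in control, with 8 CpGs higher and 23 lower. The window just outside the low end, chr11:22971501-22972000, went the other way in part, at 90.7% and 81.3% in FGR, against 44.8% and 87.5% in control (adjusted p = 0.791). Inside the stretch the windows differed. In chr11:22972001-22972500 levels were 53.3% and 67.2% in FGR, against 70% and 39.7% in control, so the groups overlapped. In chr11:22972501-22973000 FGR replicate 1 had no listed CpG, and FGR replicate 2 read 34.95%, against 74.3% and 83.5% in control. In chr11:22973501-22974000 levels were 41.9% and 27.3% in FGR, against 55.1% and 51.3% in control. The FGR levels of the stretch thus rest partly on different CpGs.

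Peg10 was lower in both FGR libraries in 2 neighbouring stretches. The leading one, chr6:4748001-4749000, lay inside the gene with 55 CpGs and read 60% and 46.3% in FGR, against 74.3% and 66.1% in control. The difference was -17.0 points (adjusted p = 0.468), and it was -10.2 without FGR replicate 2, where FGR replicate 1 has at least 5 reads. The other, chr6:4746001-4747500, overlapped the low end of Peg10 and the neighbouring Sgce with 32 CpGs and read 36.6% and 32.5% in FGR, against 84.8% and 62.5% in control. It differed by -39.1 points (adjusted p = 0.253). The 84.8% of control replicate 1 rested on 33 read counts at 6 CpGs, from at least 7 reads. The window between them was at 67.7%, just above the limit, and the window next to it, at 62.8%, was just below it. With intermediate taken as 30 to 70% both joined into 1 stretch, chr6:4746001-4749000, of 128 CpGs, which read 43.9% and 48.2% in FGR, against 75.6% and 67.9% in control. In the quasi-binomial fit over the 54457 stretches of that wider range it differed by -25.7 points with an adjusted p of 0.0331, which passed the test. That wider fit called 0.0331% of its stretches, and Peg10 was the only member among the 18 called. The joined stretch rested on at least 29 and 44 reads in FGR and at least 21 and 31 in control. Its read counts were 123 and 386 in FGR and 357 and 274 in control. They repeat reads that cover several CpGs, so this p can be too small. Limma, the other test used below, was not run over the wider range. At its 34 CpGs listed in both groups the levels were 45.2% in FGR and 71.4% in control.

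Plagl1 and Kcnq1ot1 also averaged lower in FGR, but the size depended on which libraries were included. The Plagl1 stretch, chr10:13090001-13091500, covered the gene's start and Hymai with 63 CpGs. It read 41.6% and 58.3% in FGR, against 78.6% and 43.3% in control, so the groups overlapped. The difference was -11.0 points (adjusted p = 0.896) and became 6.68 when control replicate 1 was left out and -28.6 when control replicate 2 was. It was -2.59 without FGR replicate 1, and leaving out the other FGR library gave -19.3. The Kcnq1ot1 stretch, chr7:143295001-143297000, lay at the start of the RNA within Kcnq1, with 71 CpGs. It read 52.7% and 45.9% in FGR, against 68.2% and 52.4% in control, again with overlap. The difference of -11.0 points (adjusted p = 0.897) was -3.09 without control replicate 1 and -18.9 without control replicate 2.

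Mest showed almost no difference in its leading stretch. Mest encodes an enzyme of the alpha/beta hydrolase fold that promotes fetal growth in mice. The stretch, chr6:30734501-30737500, lay inside the gene with 75 CpGs and read 55.6% and 58.3% in FGR, against 58.3% and 55.9% in control. The difference was -0.13 points, below the spread within either group. A neighbouring stretch, chr6:30738001-30739500, next to the inner promoters of Mest, held 70 CpGs and read 36.2% and 53.1% in FGR, against 54.3% and 45.3% in control. Its groups overlapped and its adjusted p was 0.996.

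Grb10 and Snrpn gave less to compare. Grb10 encodes an adaptor that restrains insulin receptor signalling, and its leading stretch, chr11:11973501-11975500, held only 23 CpGs within the gene. It read 61.9% and 52.9% in FGR, against 47.8% and 55.9% in control, with overlap and a difference of 5.51 points (adjusted p = 0.99). Whether this stretch is the control region of Grb10 was not tested. The leading Grb10 stretch differed by -13.3 points with 30 to 70% as the range, and by 14.4 points with 1000-bp windows. A window of Grb10 with 44 CpGs, chr11:12025501-12026000, lay just outside the range, at 40.6% and 66.7% in FGR, against 74.7% in control replicate 2, with no CpG listed in control replicate 1. Snrpn encodes a core protein of the spliceosome, and its leading stretch, chr7:60004001-60005500, held 43 CpGs around the promoter printed above. It read 21.6% and 59.7% in FGR, against 45.1% in control replicate 1. Control replicate 2 had 5 read counts there, none methylated, so it was not tested. The other 16 Snrpn stretches were short in CpGs, with 5 to 16 each, and 15 of them overlapped the gene. The Snrpn span as a whole read 57.9% and 59.3% in FGR, against 59.9% and 60.2% in control.

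**Figure D2:**
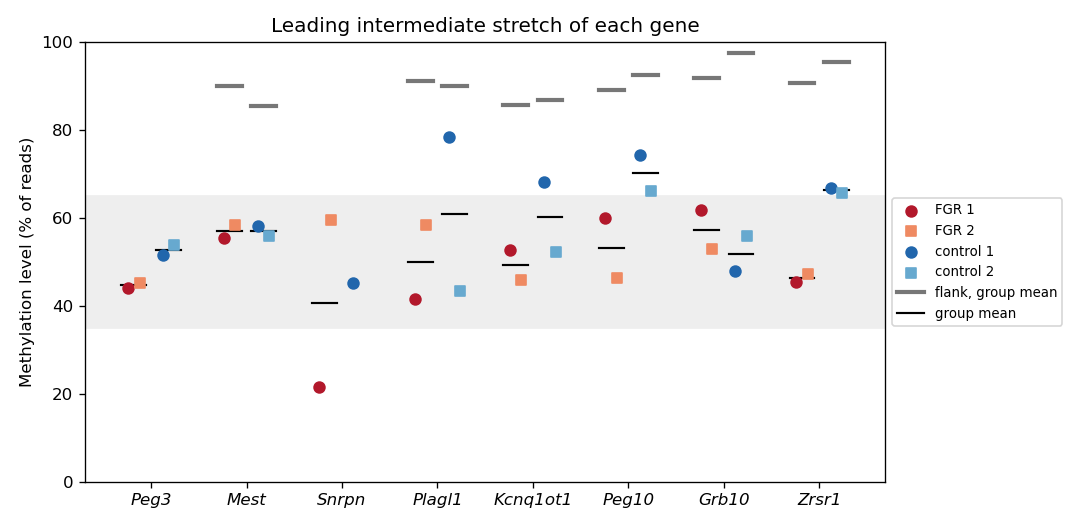
Methylation level (percent of reads, y axis) in the leading intermediate stretch of the 8 genes that have one (x axis), 1 point for each library with at least 10 read counts, FGR left of control. Black lines are group means, thick grey lines the group means of flanking windows at 80% or more where there are any, and the grey band is 35 to 65%. The FGR points lie below both control points in Peg3, Peg10 and Zrsr1 and overlap them in Mest, Plagl1, Kcnq1ot1 and Grb10.

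Highly methylated windows were found near the stretch in 6 of the 8 genes. Flanks were measured windows within 5000 bp with a level of at least 80%, so the step between stretch and flank is fixed by the choice and is given as a description. The Zrsr1 flank of 5 windows read 90.7% and 90.9% in FGR, against 94.7% and 96.5% in control, and the Peg10 flank of 5 windows read 83.3% and 95.0% in FGR, against 89.7% and 95.4% in control. The flank of Kcnq1ot1 had 7 windows and averaged 85.8 ± 7.90% in FGR and 86.9 ± 2.51% in control. That of Plagl1 had 4 windows and averaged 91.2 ± 2.32% in FGR and 90.1 ± 6.26% in control. The Mest flank had 2 windows and averaged 90.1 ± 1.09% in FGR and 85.6 ± 2.42% in control (SD, n = 2 each). Grb10 had 1 such window, and Peg3 and Snrpn had 0. Windows below 80% within the same distance were left out, so the surroundings were not highly methylated throughout. Near the Zrsr1 stretch, chr11:22969501-22970000 read 50% and 37.5% in FGR, against 29.1% and 22.7% in control. Near that of Plagl1, chr10:13087001-13087500 was under 20% in every library. The second stretch of Mest also lay within this distance of the leading one.

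**Figure D3:**
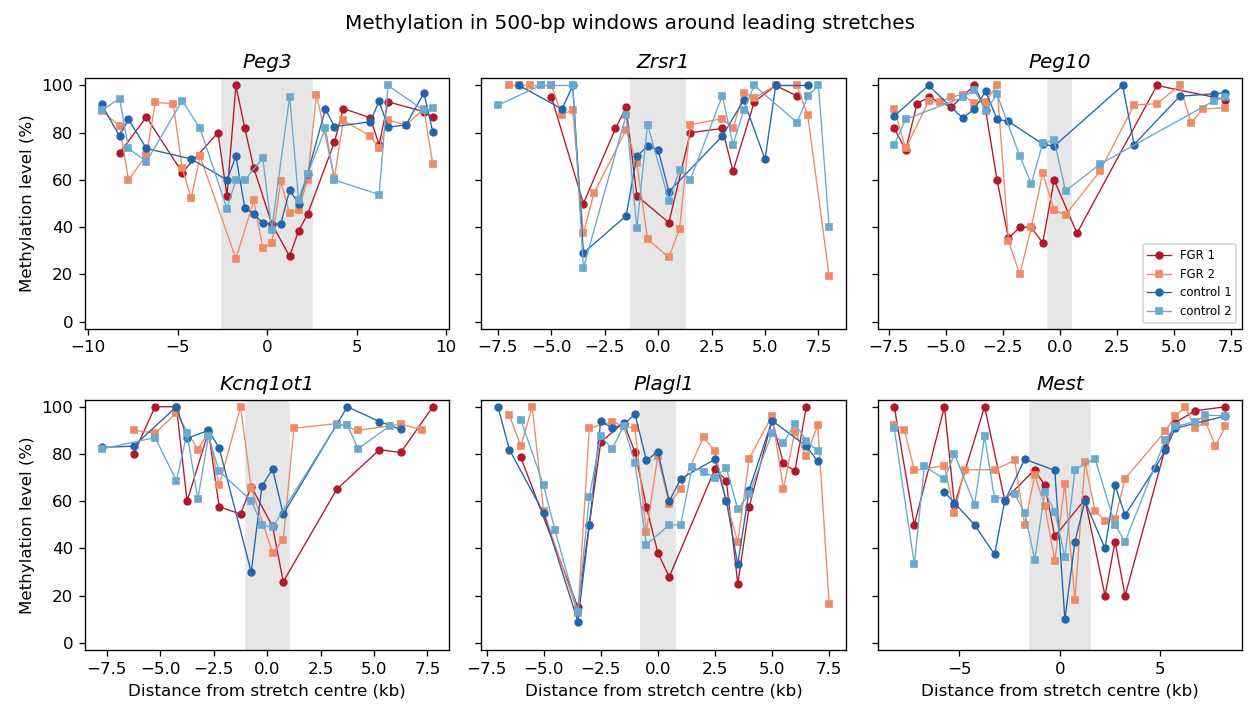
Methylation level (percent of reads, y axis) in 500-bp windows against the distance from the centre of the leading stretch (kb, x axis) for 6 genes, with 1 line for each library and the stretch shaded. Most levels far from the stretch are above those inside it, the FGR lines lie below the control lines through much of the Zrsr1 and Peg10 stretches, and single windows scatter widely within a library.

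Neighbouring CpGs in the leading stretches often had the same number of methylated reads, a measure that the level range did not use. Pairs of neighbouring cytosines on 1 strand, at most 30 bp apart and with equal coverage and some but not all reads methylated, were compared for their number of methylated reads. In the leading stretches the number was the same in 73.1% and 76.7% of 78 and 116 pairs in FGR, against 68.4% and 66.7% of 117 and 90 pairs in control. In the 507 other stretches with at least 30 CpGs, at the same median distance of 9 bp, the share was 29.7% and 28.3% in FGR, against 28.6% and 28.5% in control. By gene, with the 4 libraries together, it was 78.3% in Mest, 76.2% in Zrsr1, 75.6% in Plagl1, 73.4% in Kcnq1ot1, 70.4% in Peg3, 64.9% in Peg10 and 59.1% in Snrpn. Grb10 stood apart with 25% of 12 pairs, near the median of 25.9% over the 203 other CpG-rich stretches with at least 20 pairs, of which 10 reached 60%. Stretches of other imprinted genes had 85.8% in Peg13, 80% in Impact, 75.5% in Mcts2 and 46.4% in Gnas. These were among the 507 other stretches, as was the second stretch of Mest, so that set is not free of imprinted genes. Pairs of 1 stretch share their reads, so these shares are a description.

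**Figure D4:**
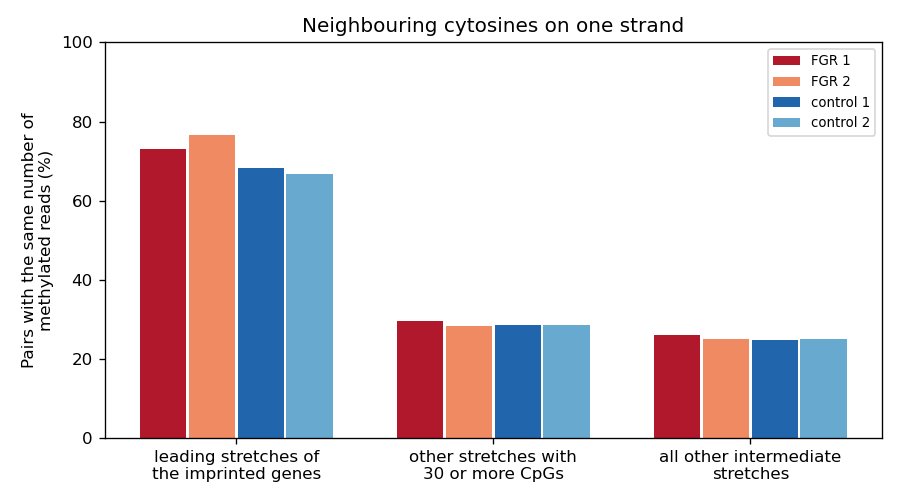
Share of neighbouring cytosine pairs with the same number of methylated reads (percent, y axis) in 3 sets of stretches (x axis), 1 bar for each library, FGR left of control. The bars of the leading stretches lie between 66.7% and 76.7% and those of the other sets between 24.8% and 29.7%. The other sets include stretches of further imprinted genes.

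Across the genes the leading stretches were mostly lower in FGR, and none passed the test. Of the 7 stretches with at least 3 CpGs and 10 read counts in every library, 6 were lower in FGR, against 50.7% of all 27540 stretches tested and 54.6% of the 476 with at least 30 CpGs. Both FGR libraries lay below both controls in 3 of the 7, Peg3, Peg10 and Zrsr1, against 17.8% of all stretches and 23.1% of the CpG-rich ones. In either direction the groups did not overlap in the same 3 of 7 (42.9%), against 34.8% of all stretches and 39.3% of the CpG-rich ones. The median difference was -10.96 points in the 7 stretches and -0.90 in the CpG-rich ones. The mean over the 7 was 51.6% and 50.6% in FGR, against 63.7% and 56.2% in control. The group means were 51.1 ± 0.696% in FGR and 59.9 ± 5.32% in control (SD, n = 2 each), a difference of -8.80 points, and of -5.04 without control replicate 1. With 2 libraries against 2 an exact permutation test over the 6 assignments cannot go below p = 0.333. In the quasi-binomial test with Benjamini-Hochberg adjustment 0 of the 7 were called, and the background was 0.0218%. At an unadjusted p under 0.05 in the quasi-binomial test there were 2 of 7, Zrsr1 and Peg10, against 6.13% of all stretches. That share was not taken over the CpG-rich stretches alone, which are more like these. Limma on log2 ratios called 0 of all stretches.

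**Figure D5:**
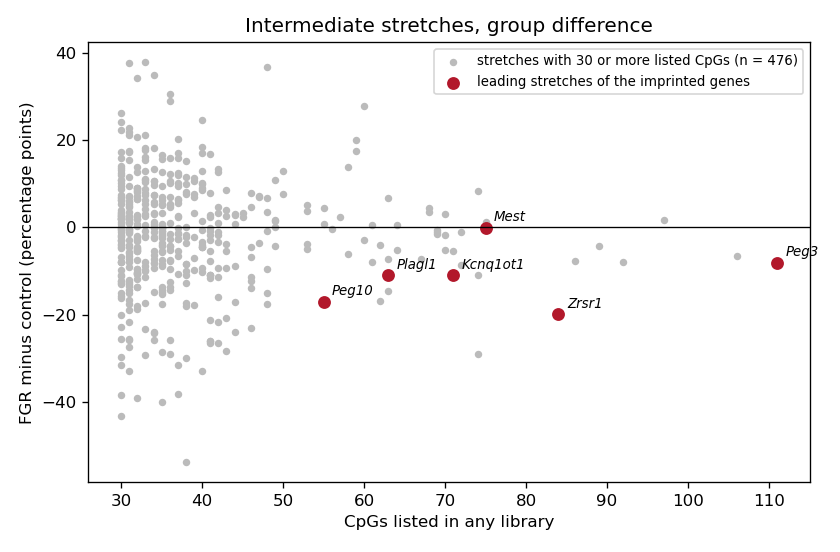
Difference in methylation, FGR minus control (percentage points, y axis), against the number of CpGs listed in any library (x axis) for the 476 tested stretches with at least 30 CpGs. Red points are the 6 leading stretches of imprinted genes among them, of which Zrsr1 at -19.9 and Peg10 at -17.0 lie lowest and Mest at -0.13 lies at the zero line.

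In single windows no gene passed the test. Of 272001 autosomal windows tested, 0.036% were called, and of the 91 in these genes 0 were called by the quasi-binomial test, and 0 by limma. At an unadjusted p under 0.05 there were 10 of 91 (10.99%), against 5.35% of all. The groups did not overlap in 37 of 91 (40.7%), against 32.4% of all, with 21 lower and 16 higher in FGR. The smallest p was in Peg10 at chr6:4748001-4748500, at 60% and 47.2% in FGR, against 74.3% and 76.8% in control (adjusted p = 0.298). Next came Peg3 at chr7:6731001-6731500, at 27.7% and 45.8% in FGR, against 55.7% and 95.2% in control (adjusted p = 0.58). The Zrsr1 window outside the low end of its stretch, given above, had the next smallest p.

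CpGs listed in all 4 libraries could speak to the gene spans but hardly to the stretches. There were 499 such CpGs in the 10 spans, of 1418485 on the autosomes, and 251 of them were in Snrpn. Inside the leading stretches there were 2 in Peg3, 1 each in Plagl1, Kcnq1ot1 and Grb10, and 0 in Mest, Snrpn, Peg10 and Zrsr1. Over the whole spans the level at shared CpGs was lower in FGR for 5 genes and higher for 5. Snrpn read 57.1% and 57.2% in FGR, against 57.7% and 59.8% in control, a difference of -1.59 points. Grb10, with 84 shared CpGs, read 71.7% and 71.2% in FGR, against 74.0% and 75.5% in control, and Peg10, with 20, read 88.6% and 85.6% in FGR, against 91.0% and 93.4% in control. Nap1l5, with 7, read 82.4% and 89.4% in FGR, against 91.5% and 96.4% in control. The Zrsr1 span, with 5 shared CpGs, none of them in the stretch, read 63.6% and 52.3% in FGR, against 44.4% and 53.6% in control. In the 41 windows testable at shared CpGs 0 were called by the quasi-binomial test, 2 had an unadjusted p under 0.05 (5.30% of all shared windows had), and the background of calls was 0.0%.

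Other imprinted genes with maternal methylation gave values in both directions. Of 12 such genes 11 were found in the table and 7 had a stretch, of which 5 were lower in FGR. In 4 genes the stretch held at least 30 CpGs, and 3 of these were lower in FGR. Peg13, a non-coding RNA, read 43.6% and 59.6% in FGR, against 57.0% and 61.6% in control. Mcts2 read 59.4% and 54.9% in FGR, against 51.2% and 65.1% in control. Impact differed by -25.9 points and Gnas by 17.4 points, and all 4 had overlapping groups. None of the 113 windows tested in the 11 genes was called by the quasi-binomial test or by limma, and 9 had an unadjusted p under 0.05, against 5.35% of all windows. Genes that share a locus with those described here, 13 in all, had 0 of 148 windows called by either test and 13 with an unadjusted p under 0.05, partly in the same windows. The RefSeq promoters could add little, since only 2 of the 15 met the minimum of CpGs and read counts in every library, 1 of Grb10 and that of Zrsr1. Both had an adjusted p of 0.824 in a fit over 906 promoters that called 0.0% of them.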

How the data were processed

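Genomic DNA had been sheared by sonication and converted with bisulfite, per the labels' protocols. Trim Galore 0.6.5, methylKit 1.28.0, Bismark and the build mm10 are named in the submitters' processing notes. For Bismark no version is given in the sources used here. The deposited tables give, per the file headers, a count of reads covering each cytosine and the percent of them methylated, each strand apart. Coverage times percent gave whole methylated reads. No listed coverage was under 5, so which CpGs are listed depends on depth.

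Here the top 0.1% of CpGs by coverage were dropped in each library and the strands were summed per CpG. Levels are methylated over all read counts, and differences are FGR minus control of group means. Windows and stretches were tested with a quasi-binomial model of group alone, with its overdispersion moderated with squeezeVar of limma 3.58.1 in R 4.3.3 and kept at 1 or above. The p of a region therefore rests only in part on its own spread between libraries. A read that covers several CpGs is counted more than once. The fit ran over all autosomal regions with at least 3 CpGs and 10 read counts in every library, with Benjamini-Hochberg adjustment. A call needed an adjusted p under 0.05 and at least 10 points. The script was tested on simulated data. Stretches, leading stretches and flanks are defined in the text. All 10 genes are named, together with the 3 windows of smallest p. The genes, lists and rules were chosen with earlier results of these data known. Wilson intervals cover counting error only. The alternatives left out each library, and changed the CpGs, coverage, window size, level range, weights and test. Python 3.11.15, numpy 2.4.6, pandas 2.3.3 and scipy 1.17.1 were used. Same-numbered libraries did not deviate together.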

Additional observations from a re-analysis of the deposited data

How the results depend on the processing

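The mean difference over the leading stretches was -8.80 points. It reversed at CpGs listed in all 4 libraries, to 0.28 points over 4 genes with 1 or 2 such CpGs each, and it lay between -12.5 and -5.88 under the other settings that kept every library. Leaving out 1 library gave -11.6 to -5.04. Taking libraries of the same number as pairs (a replicate block) gave -8.80, and the numbers do not pair the libraries, with correlations of 0.0056 over windows and 0.016 over stretches. Of the single genes, Peg10 kept a lower FGR level in the 8 of 8 alternatives that gave it a value, Zrsr1 in 10 of 10 and Peg3 in 12 of 12. Peg10 had no value at CpGs listed in all 4 libraries, at CpGs listed in both groups, at CpGs with at least 10 reads or in 250-bp windows. Zrsr1 had none at CpGs listed in all 4 libraries or in 250-bp windows. At CpGs with at least 10 reads Zrsr1 was at -3.10 and Peg3 at -16.7. Peg3 was at -0.18 with 250-bp windows. Of the other genes, Plagl1 was lower in 10 of 11, Kcnq1ot1 in 10 of 11, Mest in 5 of 10 and Grb10 in 2 of 10.

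The windows called over the autosomes numbered 98. They numbered 54 with at least 20 read counts, 7 with at least 1 CpG and 5 read counts, 0 at shared CpGs, 0 with limma, 0 with limma and the replicate block, and 0 to 0 without single libraries. At an unadjusted p under 0.05 limma had 12628 windows and 1524 stretches. The stretches called numbered 6. They numbered 2, 14, 0, 0 and 0 under the same settings in that order, 64 to 124 without single libraries, and 18 with 30 to 70% as the range. The share of intermediate windows in these genes was 29.1%, and 38.1% with that range, where it was 23.8% over the autosomes, and 25.1 to 28.0% without single libraries. The step from stretch to flank, -32.7 points, lay between -38.3 and -28.8. The CpGs in both groups and the read clusters weighted equally were chosen after the data had been seen. Depth limits these values, since few distinct reads cover a stretch and the libraries list different CpGs. At CpGs listed in both groups the mean difference was -9.60 points over 6 genes.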

Other observations

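The genes that keep imprints in place were measured too. Of 9 genes, among them Zfp57, Zfp445, Trim28 and Dnmt1, 9 were found, none had an intermediate stretch with at least 30 CpGs, and 0 of 44 tested windows were called by the quasi-binomial test or by limma. Of all autosomal windows the quasi-binomial test called 0.036% and limma called 0. The unadjusted p of the quasi-binomial test was under 0.05 in 4 of the 44, against 5.35% of all windows. A stretch of 19 CpGs in Dnmt3a, which encodes the DNA methyltransferase that sets imprints in the oocyte, read 22.7% and 48.5% in FGR, against 74.3% and 70.5% in control, with an adjusted p of 0.564 over all stretches. It was singled out after its values were seen. Slc38a4, another imprinted gene, had a stretch of 15 CpGs at 32.0% and 34.9% in FGR, against 71.0% and 69.4% in control, with too few CpGs in FGR replicate 1 for a test. It too was singled out after its values were seen.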
